A study of Homo sapiens with 7 samples.

Results

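The E2F and RB family was followed through 7 total RNA libraries of 501Mel, an established human melanoma cell line of the differentiated, melanocytic state. The 10 genes were chosen by name from the 21305 genes of the table of normalized counts: the activators E2F1, E2F2 and E2F3, the canonical repressors E2F4 and E2F5, the atypical repressors E2F7 and E2F8, and the pocket proteins RB1, RBL1 and RBL2. Cells of all groups carried a lentiviral, doxycycline-inducible short hairpin RNA and were dox-induced. They were puromycin-selected pools of transduced cells, not single clones. The control hairpin, shlacZ, is directed at the bacterial lacZ transcript and was present in 3 libraries. The hairpins named sh4 and sh8 were present in 2 libraries each and are taken here as the study's knockdown of GRASLND, a long non-coding RNA. The labels give neither the duration of induction nor whether replicates came from separate cultures, so the p-values measure the spread between these libraries, which may be technical. All 10 genes passed the low-value filter, a mean normalized count of at least 10 over the 7 libraries, which left 15420 genes for testing.

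E2F proteins bind DNA with a DP partner and set the transcription of genes for S phase and mitosis. In resting and early G1 cells the pocket proteins hold E2Fs in check: RB1 (the retinoblastoma protein) mainly binds the activators, whereas p107 (RBL1) and p130 (RBL2) mainly pair with E2F4 and E2F5 and recruit the MuvB core to form the DREAM complex. Cyclin D with CDK4 or CDK6 and cyclin E with CDK2 phosphorylate the pocket proteins and release E2F, and CDK inhibitors oppose this step. E2F7 and E2F8 bind without a DP partner or pocket protein and lower E2F target transcription late in S phase. In melanoma this pathway is often disturbed upstream, at CDKN2A or CDK4.

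Recovered read totals were 13337317 to 22855232 per library, and 214 to 5182 reads stood behind each value of a family member. GRASLND read 309, 329.9 and 289.7 normalized counts in shlacZ, 175 and 131 in sh4, and 227 and 163 in sh8, so all 4 knockdown libraries lay below the control libraries. GRASLND fell by 1.02 on the log2 scale (SE 0.21, limma adjusted p = 0.00662) under sh4, a call lost without sh4 replicate 2 (adjusted p = 0.0772), and stood at −0.68 (SE 0.21, adjusted p = 0.11) under sh8. Replicate 1 of shlacZ stood apart from the other control libraries, with chi-square values averaging 31.35 and 30.85 over genes against them, compared with 9.317 between replicates 2 and 3. The value was 21.57 between the sh4 libraries and 17.81 between the sh8 libraries, so replicates 2 and 3 of shlacZ were the closest pair. The melanocytic markers MITF, SOX10, PMEL, MLANA, TYR, DCT and TYRP1 were all present, and 6 of 7 fell under sh4, TYR being the exception at 0.15 on the log2 scale (SE 0.13), where 11.9% of all genes fell. Their summed normalized count was 135575 to 146343 in shlacZ, 51868 to 59737 in sh4 and 101544 to 104484 in sh8. Of 3 leukocyte markers CD68 was analysed (441 to 675 normalized counts), and of 4 fibroblast markers COL1A1 (5.24 to 16.4), and the keratinocyte and endothelial markers were not analysed here. The lower level of these markers moved with the family differences under sh4, and its part in them was not tested. In bulk libraries a change in the mix of cells and a change in RNA per cell cannot be told apart.

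Several E2F family genes are themselves E2F targets, so the stretch upstream of each start site was read from RefSeq (GRCh38.p14) for the letters that E2F proteins bind. The RefSeq window spans 250 bases before to 50 after a start and was matched for 8 of the 10 genes, E2F5 and E2F8 being the exceptions. The 4 spellings searched were TTTCGCGC, TTTGGCGC, TTTCCCGC and TTTGCCGC, each 8 bases long, on both strands. At least 1 of them was found in 4 of the 8 matched family genes, against 3.99% of all 27305 genes with a window. The sequences below are the last 100 bases before the start for these 4 genes, written 5′ to 3′ along the gene, with the matched letters in capitals. They are shown because the activators E2F1, E2F2 and E2F3 and the pocket protein RBL1 share this feature and the windows read for the other matched genes do not.
E2F1, chr20:33686386-33686485, minus strand: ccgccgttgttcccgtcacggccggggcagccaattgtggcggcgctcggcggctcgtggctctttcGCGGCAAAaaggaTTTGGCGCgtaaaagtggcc
E2F2, chr1:23531234-23531333, minus strand: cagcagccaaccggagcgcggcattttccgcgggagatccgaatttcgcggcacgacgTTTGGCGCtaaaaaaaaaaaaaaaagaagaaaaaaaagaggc
E2F3, chr6:20401779-20401878, plus strand: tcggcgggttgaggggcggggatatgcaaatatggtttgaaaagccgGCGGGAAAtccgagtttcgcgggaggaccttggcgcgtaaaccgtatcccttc
RBL1, chr20:37095998-37096097, minus strand: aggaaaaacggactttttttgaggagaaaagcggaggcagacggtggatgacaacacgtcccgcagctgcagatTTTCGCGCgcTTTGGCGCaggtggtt

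In E2F1 the pair of matches began 33 and 20 bases before the start, in RBL1 26 and 16 bases before it, in E2F2 42 and in E2F3 53 bases before it. The E2F3 match and the first of E2F1 read on the opposite strand. No such letters were found in the windows of E2F4, E2F7, RB1 and RBL2, which says only that these spellings are not in those windows. The RB1 window is that of an internal start 172706 bases from the annotated start of the gene, so it does not cover the main RB1 promoter. The RBL2 windows are those of starts 494 and 1642 bases from the annotated start of RBL2, which they do not cover. E2F3 has a second window, 1735 bases downstream of the first, without a match. The counts of E2F3 are per gene and merge transcripts from both starts.

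With sh4, 3 of the 10 family genes passed the limma test at a Benjamini-Hochberg adjusted p under 0.05. The activator E2F3 and the atypical repressor E2F8 fell, and RB1 rose. Over all genes 22.5% passed in this comparison, so the share among the family is near the background, and the family median of −0.18 stood beside −0.01 over all genes tested. With sh8, 0 of 10 passed (1 had an unadjusted p under 0.05, and limma-voom on recovered reads also gave 0), against a background of 2.92%. With sh4 and sh8 pooled against shlacZ, 0 of 10 passed (2 with an unadjusted p under 0.05, 0 by limma-voom), against 4.61%. Between the hairpins 2 of 10 passed, E2F3 lower and RB1 higher in sh4, against 7.0% of all genes, 3.33% lower and 3.67% higher. None of the 10 genes changed by more than 1 on the log2 scale in any comparison, a second criterion that the study also set. All genes met it in 8.16% of cases with sh4, 1.15% with sh8, 1.99% with both and 3.19% between the hairpins.

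**Figure D1:**
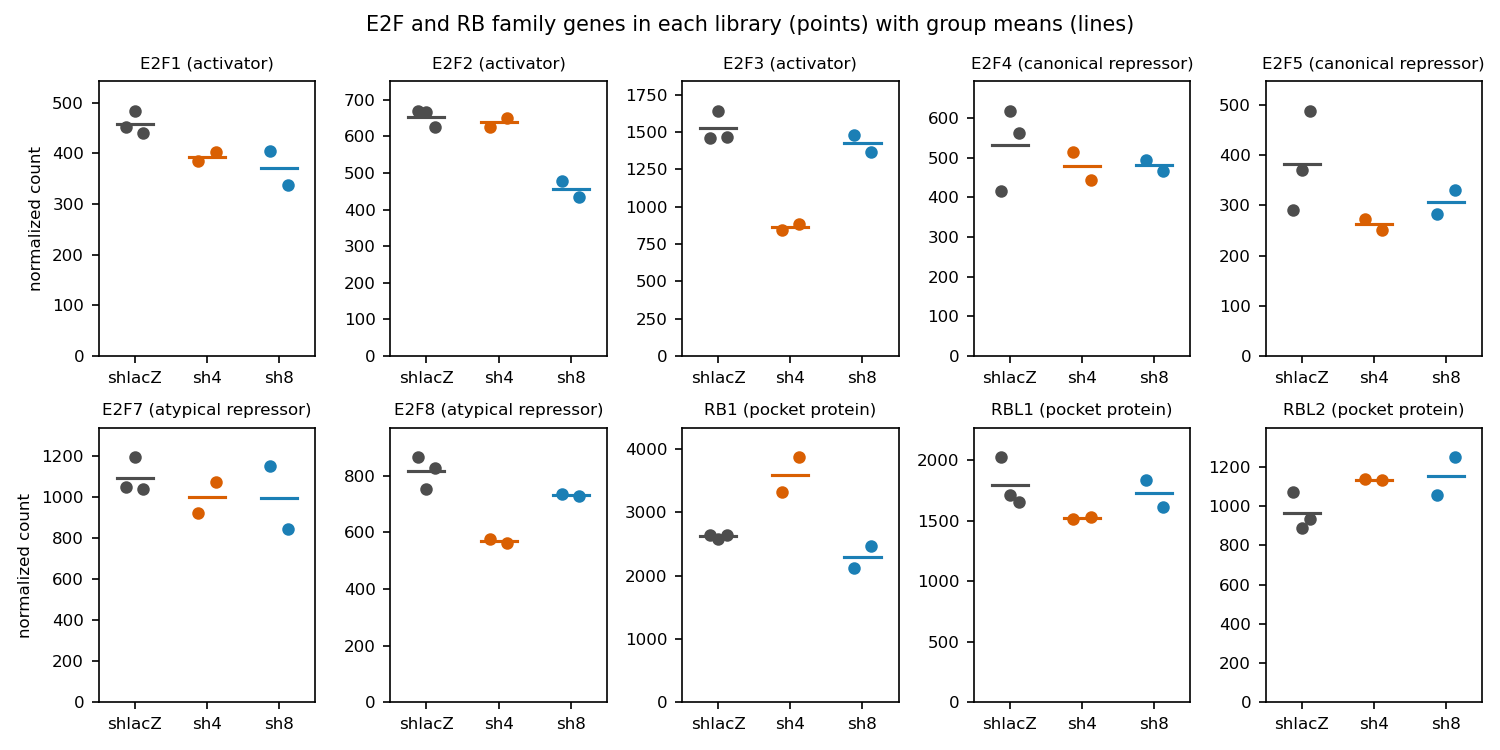
Normalized count of each of the 10 family genes (vertical axis from 0, its own scale in each panel) in the 3 shlacZ, 2 sh4 and 2 sh8 libraries; points are libraries and lines are group means. E2F3 at 847 and 882 and E2F8 at 578 and 564 in sh4 lie below every other library, and RB1 at 3316 and 3868 in sh4 lies above every other library.

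Of the activators, E2F3 carried the difference under sh4. E2F3 (chromosome 6, 20401879 to 20493714, plus strand, hg38), an activator needed for S-phase entry, read 1462, 1642 and 1469 normalized counts in shlacZ, 847 and 882 in sh4, and 1480.2 and 1369.7 in sh8. Both sh4 libraries lay below all others, while the sh8 libraries overlapped the control. The gene fell by 0.82 on the log2 scale with sh4 (SE 0.12, 95% interval −1.08 to −0.55, limma adjusted p = 0.00134), which corresponds to a level that fell by 43.2%. This call held in 18 of 18 alternative settings, with adjusted p from 0.000755 to 0.017. With sh8 the difference was −0.10 (SE 0.12, interval −0.36 to 0.17, adjusted p = 0.704), and the difference between the hairpins was itself past the threshold at −0.72 (SE 0.13, adjusted p = 0.0105). That difference between hairpins was lost on leaving out sh4 replicate 1 (adjusted p = 0.0629) or 2 (0.0811), sh8 replicate 1 (0.0975) or 2 (0.0513), and without a variance trend (0.0517).

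E2F2 had its lowest values with sh8. E2F2 (chromosome 1, 23506438 to 23531233, minus strand) read 669.8, 666 and 626 normalized counts in shlacZ, 627 and 651 in sh4, and 478 and 434 in sh8. The sh8 libraries were the lowest of the 7 and did not overlap the control, and the sh4 libraries fell within the control range. The log2 difference was −0.52 with sh8 (SE 0.13, interval −0.80 to −0.23, unadjusted p = 0.0023, limma adjusted p = 0.0622) and −0.03 with sh4 (SE 0.13, interval −0.32 to 0.25). Without shlacZ replicate 1, E2F2 passed with sh8 (−0.50, adjusted p = 0.0395) and between the hairpins (0.49, adjusted p = 0.0373), where all libraries together gave 0.49 (SE 0.14, adjusted p = 0.067). Between the hairpins it also passed under scaling to the same total (0.57, adjusted p = 0.0378) and in limma-voom (0.57, adjusted p = 0.0382). The small E2F2 difference under sh4 turned positive under scaling to the same total (0.06) and in limma-voom (0.07).

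E2F1 (chromosome 20, 33675477 to 33686385, minus strand), the activator also known for inducing apoptosis genes, read 452, 484 and 440.2 normalized counts in shlacZ, 384 and 402 in sh4, and 405 and 337 in sh8. Every knockdown library lay below every control library. The differences were small, at −0.22 (SE 0.15, interval −0.55 to 0.10) with sh4 and −0.31 (SE 0.15, interval −0.64 to 0.01) with sh8, and neither passed (limma adjusted p = 0.31 and 0.292). E2F1 and E2F8 were the 2 family genes whose 4 knockdown libraries all lay below the 3 controls, and none lay above. Among all genes 21.2% did not overlap in this way, 11.0% lower and 10.2% higher.

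The canonical repressors E2F4 and E2F5, which act with RBL1 and RBL2 in resting cells, did not pass in any comparison. E2F4 read 415, 618 and 562 normalized counts in shlacZ, 514 and 444 in sh4, and 494 and 467 in sh8, with the control libraries on both sides of the others. Its log2 difference was −0.13 with sh4 (SE 0.18) and −0.13 with sh8 (SE 0.18), with intervals reaching from −0.54 to 0.27 and from −0.53 to 0.28. E2F5 varied most within the control, at 291, 369.7 and 488 in shlacZ, against 273 and 251 in sh4 and 282 and 331 in sh8. The sh4 libraries were the 2 lowest. The E2F5 difference with sh4 was −0.51 (SE 0.21, interval −0.99 to −0.04, limma adjusted p = 0.112), and without shlacZ replicate 1, the lowest control library for this gene, it was −0.70 (adjusted p = 0.0145). Exons of E2F5 overlap RBIS on the opposite strand, and the strand setting of the counting is not given in the sources used here.

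Of the atypical repressors, E2F8 passed with sh4 and E2F7 in no comparison. E2F8 (chromosome 11, 19224063 to 19241620, minus strand) read 865, 754 and 827 normalized counts in shlacZ, 578 and 564 in sh4, and 736 and 728 in sh8. The sh4 libraries lay well below the rest, and the sh8 libraries just below the lowest control library. E2F8 fell by 0.51 on the log2 scale with sh4 (SE 0.12, interval −0.79 to −0.23, limma adjusted p = 0.0167), and the call was lost without shlacZ replicate 3 (adjusted p = 0.0645), sh4 replicate 1 (0.0816) or sh4 replicate 2 (0.0954). With sh8 the difference was −0.15 (SE 0.12, adjusted p = 0.552), and the difference between hairpins was −0.36 (SE 0.14, interval −0.66 to −0.05, adjusted p = 0.156). E2F7, its closest relative, read 1045, 1191 and 1038 in shlacZ, 920.4 and 1072 in sh4, and 1148 and 843 in sh8, so all 3 groups overlapped. Its differences were −0.13 (SE 0.16, interval −0.48 to 0.22) with sh4 and −0.15 (SE 0.16, interval −0.50 to 0.20) with sh8. An exon of E2F8 overlaps CSRP3-AS1 on the opposite strand.

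Of the pocket proteins, RB1 passed with sh4 and between the hairpins. RB1 (chromosome 13, 48303744 to 48599436, plus strand) read 2650.4, 2578 and 2649 normalized counts in shlacZ, 3316 and 3868 in sh4, and 2121 and 2473 in sh8. The control libraries were close together, both sh4 libraries were above them and both sh8 libraries below. RB1 rose by 0.45 on the log2 scale with sh4 (SE 0.12, interval 0.18 to 0.72, limma adjusted p = 0.0247) and stood at −0.20 with sh8 (SE 0.12, interval −0.47 to 0.07, adjusted p = 0.424). The difference between the hairpins, 0.64 (SE 0.13, interval 0.35 to 0.94, adjusted p = 0.0185), passed. The rise with sh4 was lost without shlacZ replicate 2 (adjusted p = 0.0722) or 3 (0.0717), without sh4 replicate 2 (0.181) and without a variance trend (0.0756), and the difference between hairpins without sh4 replicate 2 (0.163), sh8 replicate 1 (0.159) or sh8 replicate 2 (0.051) and without a variance trend (0.0771). LPAR6, a receptor gene that lies on the opposite strand inside an intron of RB1 with no shared exon, read 794, 471 and 431 normalized counts in shlacZ, 1030.0 and 911 in sh4 and 583 and 695 in sh8, and rose by 0.83 (SE 0.24, adjusted p = 0.0314) with sh4. Whether reads of one gene entered the count of the other was not tested.

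RBL1 and RBL2 did not pass in any comparison. RBL1 (p107), itself an E2F target, read 2023, 1715 and 1656 normalized counts in shlacZ, 1518 and 1534 in sh4, and 1839 and 1617 in sh8. Both sh4 libraries were lower than every other, at a log2 difference of −0.23 (SE 0.13, interval −0.52 to 0.06, limma adjusted p = 0.228). RBL2 (p130), the pocket protein that prevails in quiescent cells, read 1073, 891 and 936 in shlacZ, 1137 and 1132 in sh4, and 1054 and 1249 in sh8. It had positive differences with both hairpins, 0.24 (SE 0.13, adjusted p = 0.24) with sh4 and 0.25 (SE 0.13, adjusted p = 0.356) with sh8. Exons of RBL2 overlap AKTIP and an exon of RBL1 overlaps an unnamed gene, in each case on the opposite strand. In all, 7 of 10 family genes had sh4 libraries that did not overlap the control (2 above and 5 below), where 50.6% of all genes did (25.1% above and 25.6% below). For sh8 it was 4 of 10, all below, where 34.4% of all genes did (17.9% below and 16.5% above). Between the hairpins it was 6 of 10, with 2 higher and 4 lower in sh4, where 54.2% of all genes did (26.6% higher and 27.6% lower).

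**Figure D2:**
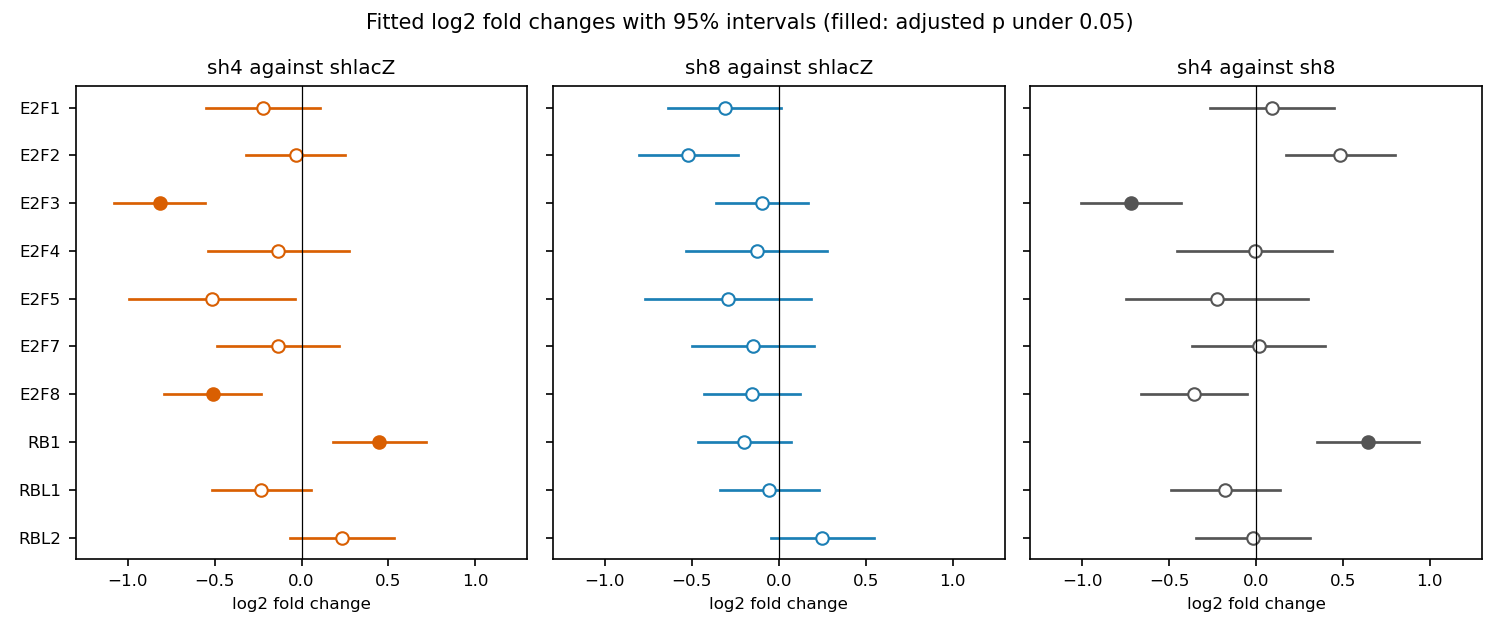
Fitted log2 fold change (horizontal axis) of each family gene with its 95% interval for sh4 against shlacZ, sh8 against shlacZ and sh4 against sh8; filled points passed at an adjusted p under 0.05. With sh4, E2F3 at −0.82, E2F8 at −0.51 and RB1 at 0.45 are filled, no point is filled with sh8, and E2F3 at −0.72 and RB1 at 0.64 are filled between the hairpins.

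To compare genes with each other, counts were divided by the length of the canonical transcript in kilobases. On this scale RB1 was the most abundant member in shlacZ at 551 ± 8.71 normalized counts per kilobase (SD, n = 3), ahead of RBL1 at 316 ± 34.6 and E2F3 at 303 ± 20.2. RBL1 and E2F3 did not differ beyond their spread, nor did E2F3 and the next gene, E2F4. E2F4 stood at 252 ± 49.7, and with it E2F8 at 220.0 ± 15.2, RBL2 at 199 ± 19.5, E2F5 at 195 ± 50.5 and E2F7 at 191 ± 15.1 formed a group whose libraries overlapped from neighbour to neighbour. E2F1 at 171 ± 8.41 came next, and E2F2 at 126 ± 4.64 was the lowest by this length, below every E2F1 library. With all exons of a gene as its length, E2F4 moved from rank 4 to 7, RBL2 from 6 to 9, E2F5 from 7 to 10, E2F1 from 9 to 6 and E2F2 from 10 to 8, so the order below the first 3 genes rests on the length used and E2F5, not E2F2, was then the lowest in every group. RB1, RBL1 and E2F3 were ranks 1, 2 and 3 with either length in shlacZ and in sh8. In sh4 E2F3 stood at 172 ± 4.94 per kilobase (n = 2) and ranked 6 by canonical length and 3 by all exons, and RB1 stood at 753 ± 81.8.

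**Figure D3:**
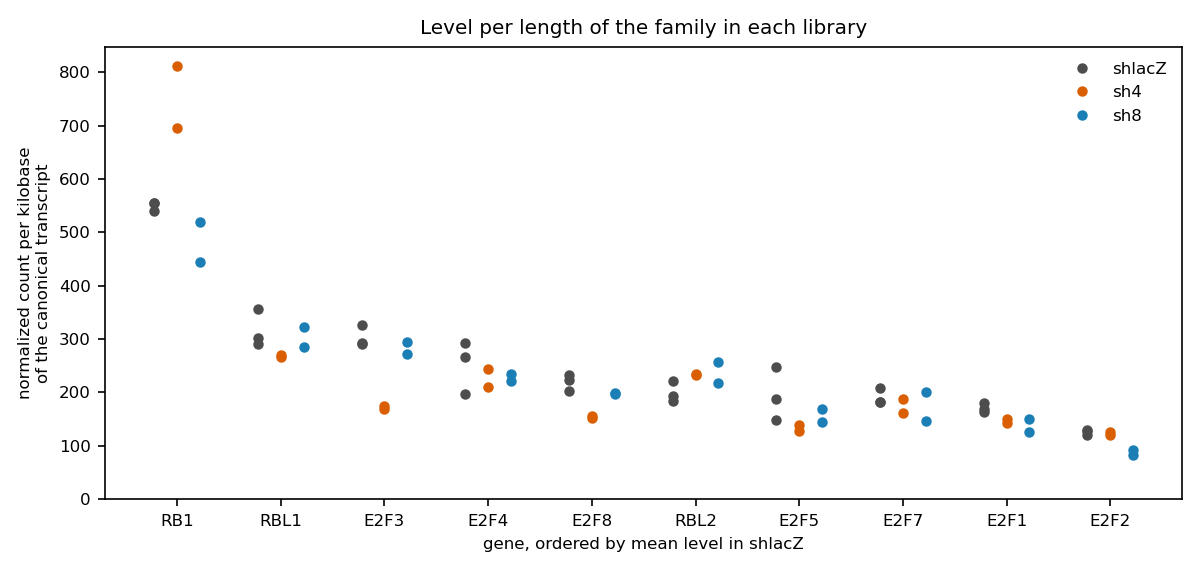
Normalized count per kilobase of the canonical transcript (vertical axis, from 0) for the 10 family genes in each library, ordered by the mean in shlacZ and coloured by group. RB1 leads in every group, at a mean of 551 in shlacZ, 753 in sh4 and 482 in sh8, and E2F2 is the lowest in every group.

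The balance of the family was described per library as the ratio of summed levels per kilobase, with no test since it is a score over the chosen genes. Activators over repressor E2Fs (E2F4, E2F5, E2F7 and E2F8) gave 0.772, 0.710 and 0.626 in shlacZ, 0.617 and 0.664 in sh4, and 0.691 and 0.655 in sh8. The hairpin libraries lay within or just below the control range. Activators over pocket proteins gave 0.519, 0.618 and 0.554 in shlacZ, 0.361 and 0.342 in sh4, and 0.544 and 0.453 in sh8. Both sh4 libraries were lower than all others in this ratio, by a mean log2 difference of −0.68 from shlacZ, while the sh8 libraries straddled the lowest control library, at −0.18. The summed activator level was 599 ± 30.9 in shlacZ, 441 ± 13.0 in sh4 and 509 ± 39.4 in sh8, and the summed pocket protein level was 1066 ± 58.1, 1255 ± 83.2 and 1023 ± 52.9 (SD, n = 3, 2 and 2).

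The makeup of the sums was read as shares. E2F3 made up 50.5% ± 0.998 of it in shlacZ, 39.0% ± 0.0301 in sh4 and 55.7% ± 1.26 in sh8. E2F2 made up 21.0% ± 0.871, 27.9% ± 0.0821 and 17.3% ± 0.152. The shares of E2F1 were 28.5% ± 0.131, 33.2% ± 0.112 and 27.0% ± 1.42. Within the pocket proteins RB1 made up 51.7% ± 2.34 in shlacZ, 59.9% ± 2.55 in sh4 and 47.0% ± 2.67 in sh8, and RBL1 29.6% ± 1.70, 21.4% ± 1.25 and 29.8% ± 4.24.

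**Figure D4:**
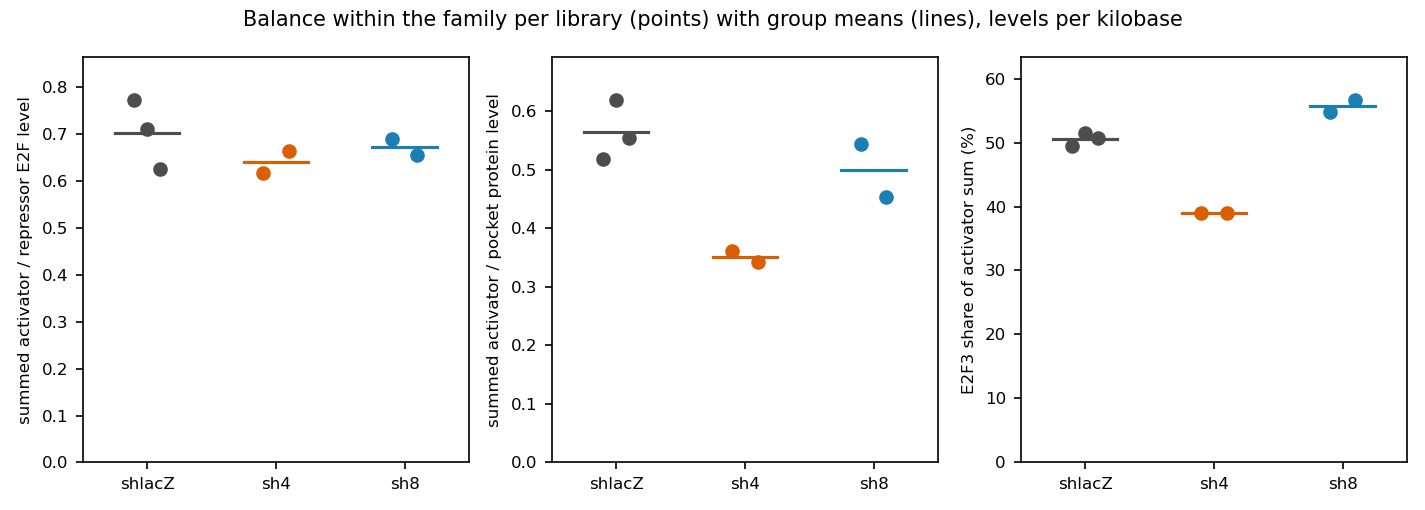
Ratio of the summed activator level to that of the repressor E2Fs and of the pocket proteins, and the share of E2F3 in the activator sum in percent, per library (points) with group means (lines), all per kilobase and from 0. The sh4 libraries sit at 0.361 and 0.342 for activators over pocket proteins, below the control range of 0.519 to 0.618, and at a mean E2F3 share of 39.0% against 50.5% in shlacZ.

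The E2F dimer partners and the MuvB partners were read next. TFDP1, the main DP partner, fell by 0.52 on the log2 scale with sh4 (SE 0.15, limma adjusted p = 0.0309), from 3845 ± 609 normalized counts in shlacZ (SD, n = 3) to 2653 ± 195 in sh4 (n = 2). The TFDP1 call was lost in 6 of 18 alternatives, among them the omission of shlacZ replicate 2 (adjusted p = 0.1) or 3 (0.0965) and of sh4 replicate 1 (0.196) or 2 (0.092). TFDP2, the second DP partner, stood at −0.11 (SE 0.13) and E2F6, a repressor that acts without pocket proteins, at −0.34 (SE 0.13, adjusted p = 0.0871). With sh8 none of the 3 passed (TFDP1 −0.11, TFDP2 0.01 and E2F6 −0.21), against 2.92% of all genes, and none had an unadjusted p under 0.05. TFDP3 was not analysed here.

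Of the 8 genes of the MuvB core and its partners, 2 fell with sh4, where 11.9% of all genes did, and 0 with sh8 (2 with an unadjusted p under 0.05), where 1.54% did. The count with sh4 was 1 to 3 on leaving out single libraries. MYBL2 (B-MYB), which replaces the pocket protein on MuvB to switch on mitotic genes, went from 2722 ± 412 normalized counts in shlacZ to 1404 ± 135 in sh4 and 1861 ± 178 in sh8. It fell by 0.95 with sh4 (SE 0.15, limma adjusted p = 0.00201), a call kept in 18 of 18 alternatives, and stood at −0.54 with sh8 (SE 0.15, adjusted p = 0.0859). With both hairpins together MYBL2 fell by 0.74 (SE 0.16, adjusted p = 0.036), lost without shlacZ replicate 2 (0.176) or 3 (0.127) and without sh4 replicate 1 (0.0901) or 2 (0.0748). DYRK1A, the kinase that promotes DREAM assembly, fell by 0.41 with sh4 (SE 0.13, adjusted p = 0.0438), but the call held in only 5 of 18 alternatives and was lost under each other scaling tried and on leaving out any library except shlacZ replicate 1. The core subunits LIN9 (0.12), LIN37 (0.55), LIN52 (−0.26), LIN54 (−0.17) and RBBP4 (−0.21), and FOXM1 (−0.29), which drives mitotic genes with MuvB, did not pass with sh4.

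The next list holds the cyclins and kinases that release E2F from the pocket proteins. With sh4, 4 of 7 G1 cyclins and kinases fell and none rose, against 11.9% of all genes that fell. CDK2, the partner of cyclin E, fell by 0.997 (SE 0.12, limma adjusted p = 0.000485) with sh4, from 13617 ± 929 normalized counts in shlacZ to 6830 ± 661, and by 0.65 (SE 0.12, adjusted p = 0.0191) with sh8, to 8655 ± 21.3. CCNE1 (cyclin E1) fell by 0.96 with sh4 (SE 0.18, adjusted p = 0.00456) and stood at −0.42 with sh8 (adjusted p = 0.244). CDK6, a partner of D-type cyclins, fell by 0.55 with sh4 (SE 0.12, adjusted p = 0.0109) but rose by 0.80 with sh8 (SE 0.12, adjusted p = 0.00954), and the difference between hairpins was −1.35 (SE 0.13, adjusted p = 0.00113). CDK4 also fell with sh4, by 0.70 (SE 0.21, adjusted p = 0.0401). CCND1 (cyclin D1) fell by 0.90 with sh8 (SE 0.16, adjusted p = 0.0195), from 14249 ± 2500 to 7640.3 ± 1304, and stood at −0.11 with sh4, a difference of 0.79 between hairpins (SE 0.18, adjusted p = 0.0271). With sh8 the list thus had 2 genes lower and 1 higher, where 1.54% of all genes fell and 1.38% rose. The sh4 calls of CDK6 and CCNE1 were lost on leaving out sh4 replicate 1 (adjusted p = 0.0623 and 0.0528) and that of CDK6 also without sh4 replicate 2 (0.0764), and that of CDK4 was lost without any one library except shlacZ replicate 1. The sh8 calls of CDK2, CDK6 and CCND1 were lost without sh8 replicate 1 (0.137, 0.0962 and 0.173) or 2 (0.16, 0.0864 and 0.0772), and those of CDK2 and CCND1 without shlacZ replicate 2 (0.0621 and 0.0594) or 3 (0.0545 and 0.0523). CCND2 was not analysed here.

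Among 6 CDK inhibitors, 2 rose with sh4 and none fell, where 10.5% of all genes rose. CDKN1C (p57) read 16.5 ± 8.99 normalized counts in shlacZ and 72.4 ± 25.4 in sh4, a rise of 2.14 on the log2 scale (SE 0.43, limma adjusted p = 0.00649), and stood at 53.9 ± 3.55 and 1.76 (adjusted p = 0.0594) with sh8. CDKN2B (p15), an inhibitor of CDK4 and CDK6, read 149 ± 64.2 in shlacZ and 416 ± 87.0 in sh4, a rise of 1.54 (SE 0.33, adjusted p = 0.00882), with 0.72 (adjusted p = 0.275) in sh8. The rises of CDKN1C and CDKN2B were lost without sh4 replicate 1 (0.087) and sh4 replicate 2 (0.0952), respectively. CDKN2C (p18) stood at 0.43 with sh4 and 0.55 with sh8 and did not pass. With sh8 0 of 6 passed (2 with an unadjusted p under 0.05, 0 by limma-voom), against 2.92% of all genes. CDKN1A was not analysed here.

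Of the 8 corepressors that pocket proteins recruit, 2 rose with sh4, SMARCA2 (the chromatin remodeller BRM) by 0.60 (SE 0.14, limma adjusted p = 0.0114) and the histone demethylase KDM5A by 0.36 (SE 0.11, adjusted p = 0.0389). As 10.5% of all genes rose, 2 of 8 is near that background, and the count was 0 to 3 on leaving out single libraries. The SMARCA2 call was lost without sh4 replicate 2 (0.106), and that of KDM5A on leaving out any library except shlacZ replicate 1. With sh8 0 of 8 passed (3 with an unadjusted p under 0.05), against 2.92% of all genes. ARID4A, an RB1-binding protein, stood at 0.35 (adjusted p = 0.0993) with sh4 and 0.58 (adjusted p = 0.0564) with sh8, and HDAC2, a histone deacetylase, at −0.30 with both.

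The genes whose transcription E2F drives at the G1/S boundary had lower values almost throughout. Of 43 such genes, 17 fell and none rose with sh4, where 11.9% of all genes fell, and the median log2 difference was −0.44 against −0.01 over all genes tested. Values were negative in 42 of 43, against 7797 of 15420 genes, and in 41 or 42 under each of the other scalings. The number that fell depended on the libraries: it was 24 without shlacZ replicate 1, 8 and 7 without shlacZ replicates 2 and 3, 3 and 7 without sh4 replicates 1 and 2, and 13 without either sh8 library. CDC25A, the phosphatase that activates CDK2, went from 1372 ± 260 normalized counts in shlacZ to 687 ± 5.56 in sh4 and fell by 0.98 (SE 0.17, limma adjusted p = 0.00362). RAD54L, a recombination repair helicase, fell by 0.94 (SE 0.15, adjusted p = 0.00244), from 958 ± 94.9 to 501 ± 86.8, and PRIM1, the DNA primase, by 0.68 (SE 0.12, adjusted p = 0.00444), from 1318 ± 59.1 to 827 ± 96.1. The calls of CDC25A and RAD54L were kept in 18 of 18 alternatives, and that of PRIM1 in 17, lost without sh4 replicate 1 (0.0511).

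With sh8 the same list had a median of −0.34 against −0.01, and 42 of 43 values were negative, but only 2 genes fell, where 1.54% of all genes did. Without shlacZ replicate 1 the number was 12, and on leaving out any other library it was 1. UHRF1, which maintains DNA methylation at replication, went from 2184 ± 342 normalized counts in shlacZ to 604 ± 147 in sh8 and fell by 1.86 (SE 0.18, limma adjusted p = 0.00102), while it stood at −0.25 (1818 ± 130.3) with sh4. The difference of 1.61 between hairpins (SE 0.19, adjusted p = 0.00194) passed, and the UHRF1 calls held in 18 of 18 alternatives. CDC6, the loader of the MCM helicase, fell by 0.68 with sh8 (SE 0.15, adjusted p = 0.0376), lost without any one library except shlacZ replicate 1. CDC25A stood at −0.74 (adjusted p = 0.054) with sh8. With both hairpins together 4 of 43 fell (CDC25A, CDC6, MCM4 and RAD54L), where 2.06% of all genes did, and all 43 had negative values, with a median of −0.40. The number that fell was 20 when both hairpins were averaged within the fit of 3 groups and 0 under the replicate block, without a variance trend or without sh4 replicate 1. Leaving out shlacZ replicate 2 or 3 removed the call of each of the 4 genes (adjusted p from 0.0962 to 0.22). The CDC6 call with both hairpins (limma adjusted p = 0.0493) held in only 4 of 18 alternatives. It was lost under each of the other scalings and on leaving out any single library. The calls of RAD54L, MCM4 and CDC25A held in 10, 11 and 13 of 18.

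The G2/M genes, which MuvB with MYBL2 or FOXM1 activates, were lower with sh4 in all 24 cases, at a median of −0.34 against −0.01 over all genes tested. Values were negative in 22 to 24 under the other scalings, and in 7797 of 15420 genes tested. Of the 24 genes 5 fell, where 11.9% of all genes did. The number was 9 without shlacZ replicate 1, 1 without shlacZ replicate 2 or 3 or sh4 replicate 1, 3 without either sh8 library, 2 under scaling to the same total or limma-voom and 1 without a variance trend. CDK1, the mitotic kinase, fell by 0.68 (SE 0.12, limma adjusted p = 0.00416), from 1930 ± 90.8 normalized counts in shlacZ to 1206 ± 170.4 in sh4, in 18 of 18 alternatives. AURKB, the Aurora B kinase, fell by 0.48 (SE 0.13, adjusted p = 0.0208) and DLGAP5, a spindle protein, by 0.48 (SE 0.13, adjusted p = 0.0274), both lost without shlacZ replicate 2 (0.0741 and 0.076), shlacZ replicate 3 (0.0566 and 0.0618) or sh4 replicate 1 (0.122 and 0.229), and AURKB without sh4 replicate 2 (0.0889). HMMR, a spindle-associated receptor, and CENPE, a kinetochore motor, were the other genes of the 5, with calls that held in 7 and 3 of 18 alternatives. With sh8 the median was −0.11 and 15 of 24 values were negative, against 7889 of 15420 genes tested. In that comparison 0 genes passed (0 with an unadjusted p under 0.05, 0 by limma-voom), against 2.92% of all genes. CDK1 stood at −0.25 with sh8, AURKA at −0.35 and CDC20 at −0.40.

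Of 6 apoptosis genes that E2F1 is known to induce, 1 rose and none fell with sh4, near the background of 10.5% and 11.9% of all genes. Values were negative in 0 of 6 with sh4, also under each of the other scalings, at a median of 0.31. With sh8 3 of 6 were negative, at a median of −0.06. BCL2L11 (BIM), a BH3-only protein, went from 489.7 ± 84.4 normalized counts in shlacZ to 751 ± 9.40 in sh4 and rose by 0.63 (SE 0.18, limma adjusted p = 0.0299), lost without shlacZ replicate 3 (0.099), sh4 replicate 1 (0.138) or sh4 replicate 2 (0.144), and stood at −0.18 with sh8. PMAIP1 (NOXA), another BH3-only protein, stood at 0.71 with sh4 (SE 0.33, adjusted p = 0.15) and APAF1, the core of the apoptosome, at 0.34 (SE 0.19, adjusted p = 0.228). With sh8 0 of 6 passed (1 with an unadjusted p under 0.05), against 2.92% of all genes. PMAIP1 stood at −0.97 with sh8, TP73 at −0.35 and BBC3 (PUMA) at 0.43. The differences between hairpins, 1.69 for PMAIP1 (SE 0.36, adjusted p = 0.0221) and 0.81 for BCL2L11 (SE 0.19, adjusted p = 0.0349), passed, and each was lost without sh4 replicate 2 (0.21 and 0.199), sh8 replicate 1 (0.154 and 0.0841) or sh8 replicate 2 (0.0572 and 0.198), that of BCL2L11 also without sh4 replicate 1 (0.141).

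**Figure D5:**
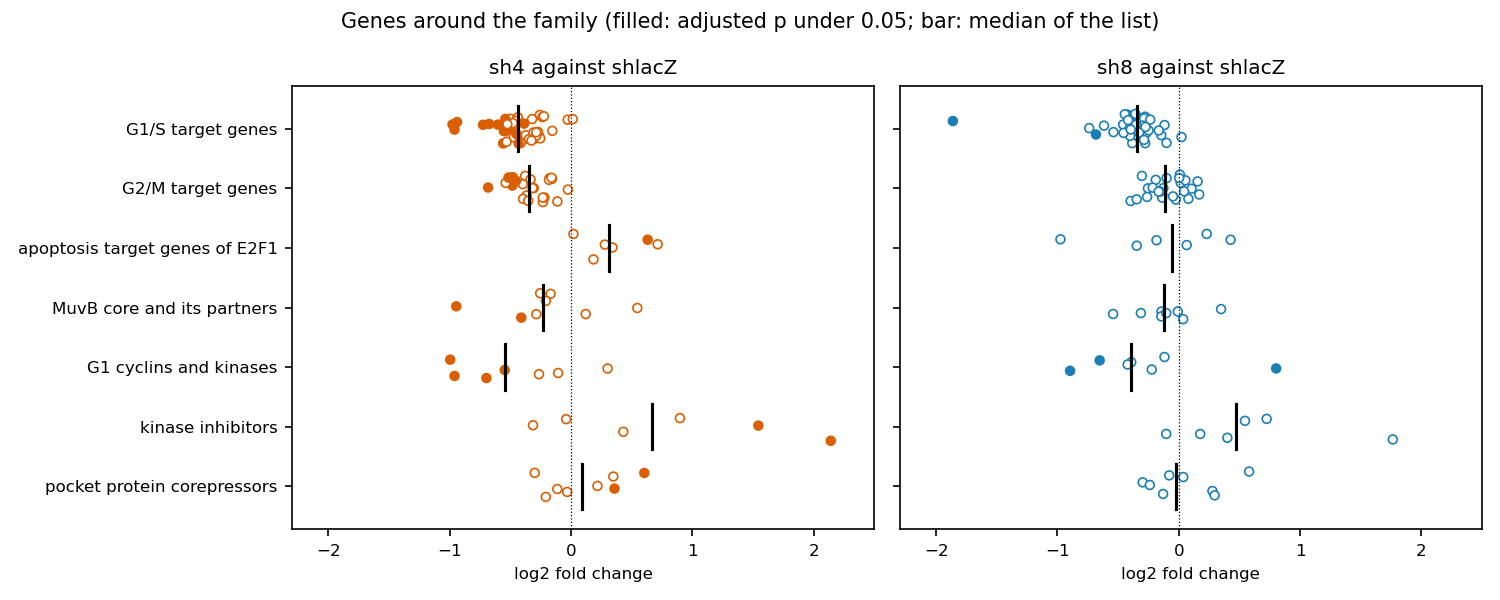
Log2 fold change (horizontal axis) of each gene of 7 lists around the family for sh4 and sh8 against shlacZ; filled points passed at an adjusted p under 0.05 and bars mark list medians. The G1/S genes centre at −0.44 with sh4 and −0.34 with sh8, whereas the G2/M genes centre at −0.34 with sh4 and −0.11 with sh8.

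The same E2F letters were counted upstream of these lists. Of the 35 G1/S genes with a RefSeq window 21 held at least 1 of the 4 spellings (60%), and of 19 G2/M genes 3 did (15.8%), against 3.99% of all genes with a window. The letters TTTGAA, the core of the CHR element that MuvB reads, were found on either strand in 14 of the 19 G2/M genes (73.7%) and in 2 of the 35 G1/S genes (5.71%), against 18.2% of all genes. The E2F spellings and TTTGAA were counted apart, and genes with several windows count once if any window matched. None of the G1 cyclins, kinases and inhibitors with a window (4 and 6 genes) held an E2F spelling.

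For E2F1 and RB1 the genes with the most similar profile were sought among 12050 genes whose mean reached 50, by Pearson's r of log2 values over the 7 libraries, which share groups and scaling. Nearest to E2F1 were HAS2 (r = 0.975), CDC6 (r = 0.975) and HNRNPA1 (r = 0.974), the last a gene with many near-identical pseudogenes. CDC6, a G1/S gene of the list above, read 2089, 2568 and 2269 normalized counts in shlacZ, 1591 and 1767 in sh4, and 1628 and 1262 in sh8. Nearest to RB1 were IFT22 (r = 0.991), CXADR (r = 0.987) and ANKRD42 (r = 0.985). CXADR read 548, 417 and 498 in shlacZ, 861 and 1087 in sh4, and 294 and 439.6 in sh8, the same order of groups as RB1. Within the family E2F3 and E2F8 had r = 0.903 and RB1 and E2F3 had r = −0.859. These values describe 7 libraries in 3 groups and carry no test.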

How the data were processed

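The data are total RNA libraries of 501Mel cells, prepared after ribosomal RNA depletion with a stranded kit. The authors trimmed reads with cutadapt, mapped them to hg38 with STAR, quantified them with Salmon and scaled the counts with DESeq2, and the deposited table holds these size-factor-normalized counts per gene, written with decimal commas. The authors' other processing versions are not given in the sources used here. Every value was a whole read times a factor per library (tolerance 0.1, 100% of values), so the read totals of each library could be recovered. Of 21305 gene IDs, 21281 were found in GENCODE 44 on hg38. The table gave no symbol for 4633 of them, of which 233 were given one by ID.

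log2(normalized count + 1) of the 15420 genes whose mean reached 10 was tested with limma 3.58.1 (R 4.3.3) with a variance trend and Benjamini-Hochberg adjustment over all of them. A gene passed at an adjusted p under 0.05. Fold changes of low genes are understated by the pseudocount of 1. The single hairpins were compared in a fit of 3 groups sharing 1 spread, and both together in a fit of 2 levels. A count model was planned for whole counts only and was not used on the normalized values. Each comparison was repeated under 18 alternatives of pseudocount, filter, scaling, variance trend, replicate block, limma-voom on recovered reads, samples fitted and single libraries left out. The code was tested on simulated data.

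The family genes and the gene lists were chosen with earlier results of these data known. The family, the dimer partners and the MuvB list are named in full. From each other list the 3 genes with the lowest adjusted p in each hairpin comparison are named, and CDK4, MCM4, HMMR and CENPE were named after their values were seen. Sequences are from RefSeq. Some genes are not reported here.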

Additional observations from a re-analysis of the deposited data

Results flagged for a closer look

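For E2F3, RB1 and 6 genes around them the effects of the hairpins differed by the test of sh4 against sh8 (limma, adjusted p under 0.05). Over all genes 7.0% passed this test. Of the 10 family genes E2F3 differed by −0.72 on the log2 scale and RB1 by 0.64. Of the 7 G1 cyclins and kinases CCND1 differed by 0.79 and CDK6 by −1.35. Of the 43 G1/S genes UHRF1 differed by 1.61 and CDCA7, named after its value was seen, by −0.75. Of the 6 apoptosis genes PMAIP1 differed by 1.69 and BCL2L11 by 0.81. No gene of the other lists passed this test. The differences of CDK6 and UHRF1 were kept in 18 of 18 alternatives. The others were lost on leaving out at least 3 of the 4 hairpin libraries in turn. Over the 4 knockdown libraries no family gene had a single lowest or highest value that stood far apart from its nearest neighbour. The largest such gap was 0.696 of the range, for E2F1. The gap between the middle values was not measured. A split between the sh4 and sh8 libraries, as in E2F3 and E2F8, therefore does not show in it.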

How the results depend on the processing

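The number of family genes past the test was 0 with both hairpins together and 1 (E2F3) when the mean of both was taken in the 3-group fit. With sh4 it was 3, and 1 to 4 on leaving out single libraries. With sh8 it was 0, and 0 to 1. Between the hairpins it was 2, 0 without a variance trend, 3 under scaling to the same total and in limma-voom, and 0 to 3 on leaving out single libraries. The log2 ratio of activators to repressor E2Fs differed between sh4 and sh8 by −0.07, and by 0.10 with the mean of log2 values. With that measure the activator to pocket protein ratio differed by −0.51 instead of −0.68 for sh4 against shlacZ and by −0.20 instead of −0.50 for sh4 against sh8. The cause was not tested. Over 144 pairs of such a result and an alternative, 132 kept the value within 1.5 times or 1 SD and 12 did not. The 132 are no measure of stability, since they include counts of 0 that stayed 0. They also include ratio differences without a library of a group not compared, which cannot change. A change of sign within 1 SD counted as kept. For activators to repressor E2Fs with sh8 the log2 difference ran from −0.139 to 0.0118 on leaving out single libraries. Counts over all genes moved too: with both hairpins from 711 to between 42 and 2534, with sh4 from 3464 to between 1413 and 4865, with sh8 from 451 to between 53 and 1600, and between hairpins from 1079 to between 144 and 1975. The r of deviations from group means between libraries with the same replicate number was 0.337, 0.117, 0.213, −0.0781, 0.0337 and 0.0337. The 2 libraries of a hairpin mirror each other in these deviations, so the last 2 values are 1 number. These values therefore cannot decide whether the replicate number is a pairing. With the replicate number as a block, 3 family genes passed with sh4, 0 with sh8, 0 with both and 2 between hairpins. The count over all genes under the block was 42 with both hairpins, 3376 with sh4, 574 with sh8 and 1467 between hairpins. Only shlacZ has a replicate 3, so the block also takes that library out of the comparison. Without shlacZ replicate 3 and with no block the count with both hairpins was 88. Having 2 libraries per hairpin limits every value given.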
